A study of Mus musculus with 25 samples.

Results

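Sphingolipid and ganglioside synthesis was followed through 10 genes, namely Sptlc1, Sptlc2, Cers2, Cers6, Degs1, Ugcg, B4galt6, B4galnt1, St3gal2 and St3gal5. The genes were chosen by name, as enzymes that lead from serine and palmitoyl-CoA to ceramide and from ceramide to gangliosides. Earlier results of these data were known at that choice. Their symbols were matched to Ensembl gene identifiers, and all 10 were found among the 48795 genes of the deposited tables. All 10 were also among the 15625 genes that passed the filter on low counts and were tested.

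The data are polyA RNA-sequencing libraries from the livers and liver tumors of male C57BL/6J mice, an inbred strain. DEN (diethylnitrosamine) is a carcinogen that liver cells activate, and it was given as 1 injection of 25 mg/kg into the abdomen at 2 weeks of age. From weaning the mice ate a western-like diet (WD) or a control diet (CD), and tissue was taken at 36 to 39 weeks of age. The 25 libraries fall into 5 groups. Mice without DEN gave the control liver (nonDEN-L-CD, control diet, n = 3) and the western diet liver (nonDEN-L-WD, n = 4), and mice that received DEN and the control diet gave the DEN liver (DEN-L-CD, n = 4). Mice with both DEN and western diet gave 2 tissues, the peritumoral liver next to tumors (DEN-PT-WD, n = 8) and the tumors themselves (DEN-T-WD, n = 6). No untumored liver stands for DEN on the western diet, so peritumoral tissue takes that place in every diet comparison with DEN. The study's account says that some mice given DEN on the control diet also had tumors. These were too small to be dissected from the surrounding liver, so DEN liver may hold small tumors. The labels do not state that the libraries of a group came from separate mice, so p-values measure the spread between these samples, part of which may be technical. Whether tumor and peritumoral libraries with the same number came from 1 mouse is not given in the sources used here either, and the tests treat them as independent samples.

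Total counts per library ran from 21530083 to 38074411. Hepatocyte markers were high throughout, and the summed level of 8 of them was 39559 to 68480 TPM (a length-corrected share of all transcripts) outside tumors. Among tumors it was 108764 to 129536 TPM in 5 libraries and 32021 TPM in tumor replicate 5, so that library stands apart from the other 5 tumors. Alb and Apoa1 carry most of this sum, with median levels of 89681 and 18407 TPM in tumors against 40458 and 7259 TPM in peritumoral liver, and the median log2 fold change of the 8 markers between these groups was 0.05. Pancreatic acinar markers, which liver cells should lack, summed to over 1000 TPM in 4 libraries (DEN liver replicate 3, peritumoral liver replicates 1 and 2, and tumor replicate 6) and to 0.25 to 923 TPM in the others. Calls of the 10 genes that were lost without these 4 libraries are given both ways. In whole tissue, fewer cells of a type and less RNA per cell cannot be told apart.

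Sphingolipids are built on a long-chain base made in the endoplasmic reticulum. Serine palmitoyltransferase joins serine to a fatty acyl-CoA, ceramide synthases add a second fatty acid whose length depends on the synthase, and a desaturase completes ceramide. In the Golgi, ceramide receives glucose, then galactose, and sialic acid on lactosylceramide makes the first ganglioside, from which longer gangliosides are built. The liver uses these lipids in membranes, bile canaliculi and lipoproteins, and ceramide chain length is known to bear on insulin signaling and fat storage there.

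The deposited tables name genes of the GRCm38 mouse build, and each gene's place on it is given where the gene is described. On the opposite strand Cers2 overlaps Setdb1 and 6330562C20Rik, B4galnt1 overlaps Slc26a10, St3gal5 overlaps 4933431G14Rik, Sptlc2 overlaps Gm26764 and Gm48806, and St3gal2 overlaps Gm26816. Cers6, St3gal2 and St3gal5 also overlap genes on their own strand, and whether the counting used strand is not given in the sources used here. At most 0.543% of the 50-base words of any of these genes' transcripts (Ugcg) occur in transcripts of another gene, so few reads could be shared.

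Sequence upstream of the RefSeq start (GRCm38.p6) is shown for 5 of the 10 genes, because 2 steps of the pathway rest on a pair of genes of which 1 moved with the groups more than the other (Sptlc2 and Sptlc1, Cers6 and Cers2), and because St3gal5 is the most abundant of the 10 in control liver. The windows hold the 250 bases before the start, and bases within an annotated GENCODE exon of the gene (36 in Sptlc1, 106 in Cers2, 16 in St3gal5) are not printed. The printed stretches lie at chr13:53377398-53377611, minus strand (Sptlc1), chr12:87388356-87388605, minus strand (Sptlc2), chr3:95314940-95315083, plus strand (Cers2, the first of 2 starts), chr2:68861191-68861440, plus strand (Cers6), and chr6:72097358-72097591, plus strand (St3gal5). Each is written 5′ to 3′ on the gene's strand, and capitals mark 4 motifs searched on both strands, the GC box with the letters GGGCGG, the CCAAT box, the E-box with the letters CACGTG and the TATA box with the letters TATAAA. No base of the 5 windows lies in more than 1 match.
Sptlc1: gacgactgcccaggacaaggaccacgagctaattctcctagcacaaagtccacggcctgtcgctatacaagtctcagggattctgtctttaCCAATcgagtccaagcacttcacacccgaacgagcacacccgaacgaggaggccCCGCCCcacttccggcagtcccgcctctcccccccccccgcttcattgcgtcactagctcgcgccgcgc
Sptlc2: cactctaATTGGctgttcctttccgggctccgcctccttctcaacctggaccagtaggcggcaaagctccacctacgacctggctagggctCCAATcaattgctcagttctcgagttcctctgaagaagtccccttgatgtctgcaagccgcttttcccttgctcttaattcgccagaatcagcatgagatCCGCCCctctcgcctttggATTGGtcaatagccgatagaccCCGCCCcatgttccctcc
Cers2: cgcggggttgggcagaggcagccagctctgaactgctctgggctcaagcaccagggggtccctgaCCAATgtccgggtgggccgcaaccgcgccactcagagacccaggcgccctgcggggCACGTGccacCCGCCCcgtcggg
Cers6: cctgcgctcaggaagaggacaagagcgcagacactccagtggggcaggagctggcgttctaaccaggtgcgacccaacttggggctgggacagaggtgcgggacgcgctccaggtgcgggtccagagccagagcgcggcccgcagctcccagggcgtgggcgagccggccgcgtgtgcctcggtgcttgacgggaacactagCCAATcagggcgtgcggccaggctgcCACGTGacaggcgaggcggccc
St3gal5: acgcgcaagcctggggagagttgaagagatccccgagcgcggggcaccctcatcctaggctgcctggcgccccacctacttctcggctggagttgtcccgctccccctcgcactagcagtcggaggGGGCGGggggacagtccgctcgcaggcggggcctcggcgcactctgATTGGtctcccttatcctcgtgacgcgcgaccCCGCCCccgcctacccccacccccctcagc

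Counted over the whole windows, the CCAAT letters occurred once in Sptlc1, Cers2, Cers6 and St3gal5 and 3 times in Sptlc2, against 33.8% of 32851 promoters of the same length that hold them. GGGCGG, held by 32.7% of promoters, was found in 4 of the 5 and not in Cers6. The E-box letters CACGTG, held by 6.02% of promoters, stood in both ceramide synthase windows and in that of Degs1, while the window of the other Cers2 start held none of the 4 motifs. TATAAA, held by 12.4%, was in none of the 5. RefSeq starts of Degs1 and Ugcg were matched too, and none of B4galt6, B4galnt1 or St3gal2 was.

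TPM, which corrects for transcript length, places the genes on 1 scale, and the levels spanned more than 2 orders of magnitude. In control liver, St3gal5 was the most abundant at 183 ± 36.5 TPM (SD, n = 3), followed by Cers2 at 129 ± 1.11 TPM, and their ranges did not overlap. Degs1 (38.8 ± 2.33 TPM), B4galnt1 (32.8 ± 7.27 TPM) and Sptlc2 (30.9 ± 9.69 TPM) came next, with overlapping ranges. Sptlc1 (13.1 ± 1.74 TPM), Ugcg (10.2 ± 0.593 TPM) and Cers6 (5.96 ± 1.93 TPM) followed. B4galt6 (0.853 ± 0.266 TPM) and St3gal2 (0.607 ± 0.110 TPM) were near 1 TPM or less, with overlapping ranges.

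The order changed at the top and in the middle in the other groups, while B4galt6 and St3gal2 stayed the least abundant pair. St3gal5 made up 41.1% of the summed TPM of the 10 genes in control liver, 24.3% in western diet liver, 25.5% in DEN liver, 21.7% in peritumoral liver and 14.4% in tumor, and Cers2 stood first in those 4 groups with 39.7% to 44.8%. Sptlc2 passed B4galnt1 in peritumoral liver and in tumor, where it reached 67.5 ± 6.97 TPM (n = 6). B4galt6 reached 12.5 ± 2.23 TPM in tumors, just below Sptlc1 at 16.3 ± 2.37 TPM. TPM levels shift as a whole between groups, since the ratio of mean TPM of the median gene was 0.495 on the log2 scale for tumor against control liver and 0.142 for tumor against peritumoral liver.

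**Figure D1:**
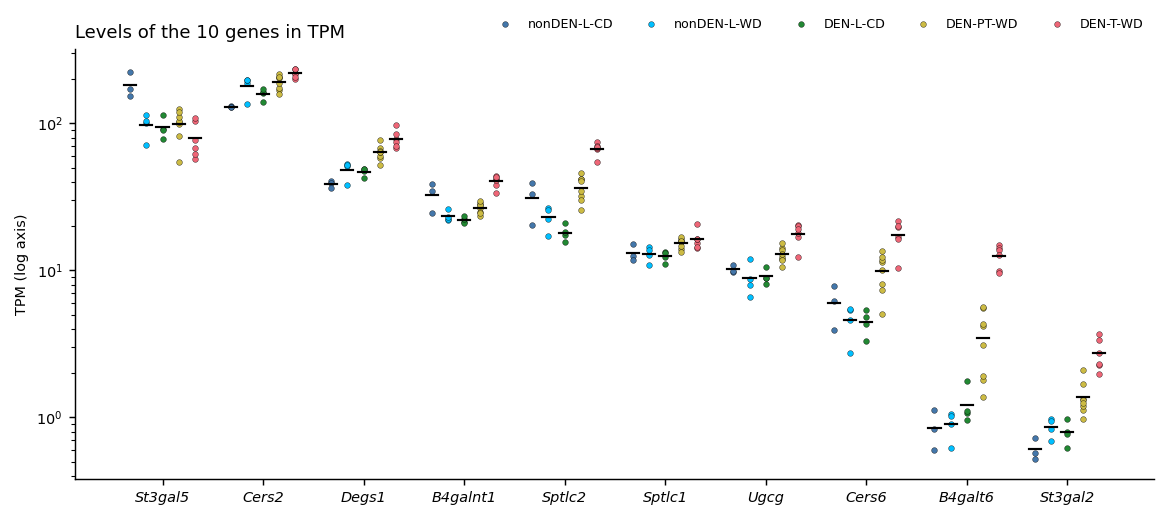
Level of each of the 10 genes in TPM, on a log axis, in every library, with genes ordered by their mean in control liver and horizontal bars for group means. St3gal5 leads in control liver at 183 TPM, Cers2 leads in tumors at 219 TPM, and B4galt6 goes from 0.853 to 12.5 TPM between those groups.

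Differences between groups were tested on counts with edgeR's quasi-likelihood test, 1 fit over all 25 libraries, and p-values adjusted by the Benjamini-Hochberg method over the 15625 genes. A gene passed at an adjusted p of at most 0.05. Counts per library are given after normalization by the trimmed mean of M-values, scaled to a common library size, and a log2 fold change carries its standard error. Several comparisons share a control group (control liver serves 3 of the 6), so their results are not independent of each other. Where the libraries of compared groups do not overlap, that describes these values only. The share of all tested genes that separate in the same way was not counted.

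The 10 genes split by comparison. Western diet alone (western diet liver against control liver) and DEN alone (DEN liver against control liver) each came with lower Sptlc2, B4galnt1 and St3gal5, while every gene that passed in peritumoral liver against either of its controls, or in tumor against peritumoral liver, was higher. For western diet alone 1 gene rose (Cers2) and 3 fell, where 11.2% of all tested genes were higher and 12% lower. For DEN alone 1 rose (Degs1) and 3 fell, where 9.12% of all tested genes were higher and 12.2% lower. Western diet alone and DEN alone rest on the same 3 control liver libraries. With the replicate number as a block, 3 of the 10 genes passed for western diet alone and 0 for DEN alone. In peritumoral liver against western diet liver 4 rose (Sptlc2, Cers6, Degs1, B4galt6), where 7.5% of all genes were higher and 4.87% lower. In peritumoral liver against DEN liver 3 rose (Sptlc2, Cers6, B4galt6), where 6.8% were higher and 3.76% lower.

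Tumor against peritumoral liver gave 6 of the 10 higher (Sptlc2, Cers6, Ugcg, B4galt6, B4galnt1, St3gal2), where 19.5% of all tested genes were higher and 18.1% lower. Tumor against control liver gave 6 higher (Cers2, Cers6, Degs1, Ugcg, B4galt6, St3gal2) and St3gal5 lower, where 27.8% of all genes were higher and 26.2% lower, so a call there is common. The median log2 fold change of the 10 was 0.40 between tumor and peritumoral liver against 0.01 over all tested genes, and -0.23 for western diet alone against 0.01. It was -0.15 for DEN alone (all genes, 0.02), 0.27 and 0.17 for peritumoral liver against western diet liver and DEN liver (all genes, 0.00 and 0.02), and 0.33 for tumor against control liver (all genes, 0.02). Sptlc1 passed in none of these comparisons. The 10 genes were chosen with earlier results of these data known. These counts and medians thus describe them and do not test them as a set.

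The study asks in addition for a 2-fold change in either direction (1 on the log2 scale), applied to shrunken fold changes, whereas the fold changes counted here were not shrunken. With both thresholds 1 of the 10 genes passed for western diet alone (St3gal5, just past the limit, where 5.28% of all tested genes passed) and 0 for DEN alone (4.7%), where St3gal5 at -0.97 and Sptlc2 at -0.95 came nearest and 4 had passed by edgeR's adjusted p. In peritumoral liver 2 passed against western diet liver (Cers6 and B4galt6, all genes 2.76%) and 1 against DEN liver (B4galt6, 1.9%). In tumor 1 passed against peritumoral liver (B4galt6, 7.9%) and 3 against control liver (B4galt6, St3gal2 and St3gal5, 20.3%). In the interaction of DEN with diet, described further on, 2 passed (Sptlc2 and Cers6, 2.75%). Most differences of these genes were thus smaller than 2-fold.

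**Figure D2:**
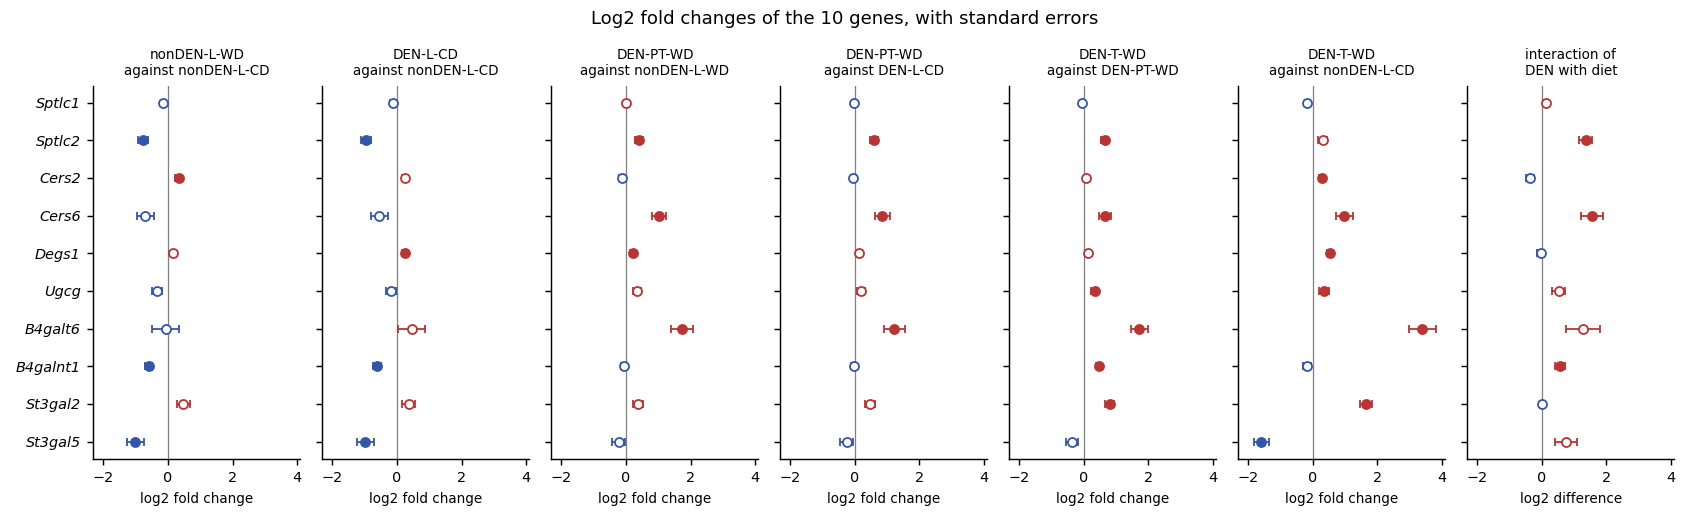
Log2 fold change of each gene in the 6 comparisons and in the interaction of DEN with diet, with standard errors as bars (none is drawn for St3gal2 in the interaction, whose estimate is near 0). Filled points passed at an adjusted p of at most 0.05, open points did not, red is higher and blue lower; B4galt6 in tumor against control liver is farthest to the right at 3.39.

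Serine palmitoyltransferase, which opens the pathway and limits its rate, is a complex of the Sptlc1 product with the catalytic product of Sptlc2. Sptlc2 (ENSMUSG00000021036) lies at chr12:87305058-87388355 on the minus strand and Sptlc1 (ENSMUSG00000021468) at chr13:53332748-53377397, also on the minus strand. Sptlc2 was at 873, 1468 and 1455 normalized counts in control liver, at 829, 739.7, 671 and 745 in western diet liver, and at 672, 621, 658 and 676 in DEN liver. In peritumoral liver it ranged from 733 to 1268 (median 988) and in tumors from 1347 to 1772 (median 1566). Every library of western diet liver and DEN liver fell below every control library, with replicate 1 of that group closest to them, and every tumor lay above every peritumoral library.

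The log2 fold change of Sptlc2 was -0.76 ± 0.16 for western diet alone (adjusted p = 0.0018) and -0.95 ± 0.16 for DEN alone (adjusted p = 0.00028). It was 0.60 ± 0.13 in peritumoral liver against DEN liver (adjusted p = 0.0078) and 0.65 ± 0.11 in tumor against peritumoral liver (adjusted p = 0.00011). Against western diet liver the peritumoral value was 0.41 ± 0.13 (adjusted p = 0.041), and it missed the threshold without any 1 of western diet liver replicates 1 to 4 or peritumoral replicates 3, 4, 5 and 8 (0.36 to 0.47), and without the 4 libraries with pancreatic markers (0.45, adjusted p = 0.063). Sptlc2 thus stood lower in both single-exposure groups and higher again in tumor. Its DEN alone call was lost with the replicate number as a block. The difference of tumor from control liver did not pass (0.30 ± 0.15, adjusted p = 0.094), and the value depended on scaling and on 1 library. It was 0.63 (adjusted p = 0.0017) with library totals in place of the trimmed mean, and 0.06 (adjusted p = 0.76) without control liver replicate 1.

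Sptlc1 varied little by comparison. Its normalized counts were 738, 818 and 680.5 in control liver, 645 to 709 in western diet liver, 643 to 727 in DEN liver, 629.6 to 733 in peritumoral liver and 587 to 779 in tumor, ranges that overlapped throughout. Its log2 fold changes lay between -0.17 and 0.02 in the 6 comparisons, and the smallest adjusted p was 0.057, in tumor against control liver (-0.17 ± 0.08). Without tumor replicate 5, the highest tumor, that value was -0.23 with an adjusted p of 0.0065, and it passed as well without tumor replicate 4 (-0.19) or control liver replicate 3 (-0.24).

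The TPM ratio of Sptlc2 to Sptlc1 in the same library was 2.34 ± 0.627 (SD, n = 3) in control liver, 1.77 ± 0.218 (n = 4) in western diet liver and 1.45 ± 0.195 (n = 4) in DEN liver. It was 2.40 ± 0.556 (n = 8) in peritumoral liver and 4.20 ± 0.617 (n = 6) in tumor. The lowest tumor (3.39) lay above the highest library of any other group (3.26). This ratio and those that follow were not tested.

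Ceramide synthases attach the second fatty acid. The Cers2 product, the main liver form, prefers very long chains, and the Cers6 product prefers palmitoyl chains. Cers6 (ENSMUSG00000027035) lies at chr2:68861441-69114282 and Cers2 (ENSMUSG00000015714) at chr3:95314791-95323599, both on the plus strand. Cers6 was at 588, 818 and 1008 normalized counts in control liver, at 523, 475, 602 and 379 in western diet liver, and at 530.3, 733, 545 and 411 in DEN liver. In peritumoral liver it ran from 512 to 1249.8 (median 1119), and in tumors from 943 to 1921 (median 1645). The 943 was replicate 5, and the other 5 tumors, at 1593 or more, lay above every peritumoral library.

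Cers6 rose in all 4 comparisons that involve DEN with western diet tissue. The log2 fold change was 1.02 ± 0.22 in peritumoral liver against western diet liver (adjusted p = 0.0065) and 0.85 ± 0.22 against DEN liver (adjusted p = 0.017). Tumor exceeded peritumoral liver by 0.66 ± 0.18 (adjusted p = 0.0069), and by 0.77 without replicate 5, and it exceeded control liver by 0.98 ± 0.25 (adjusted p = 0.0025). The call against DEN liver was lost when DEN liver replicate 1, 3 or 4 was left out (adjusted p of 0.054 to 0.072), and also without the 4 libraries with pancreatic markers (0.82, adjusted p = 0.093). For western diet alone Cers6 was at -0.70 ± 0.26 (adjusted p = 0.058), and leaving out control liver replicate 1 moved it to -0.90 (adjusted p = 0.026).

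Cers2 was at 6199, 5559.8 and 6028 normalized counts in control liver and at 7562, 7477, 8178 and 6656 in western diet liver. Every western diet library was above every control, and Cers2 rose by 0.33 ± 0.10 (adjusted p = 0.018). Tumor against control liver gave 0.29 ± 0.09 (adjusted p = 0.0098), with tumors at 6423 to 8212. The western diet call was lost without control liver replicate 2 (adjusted p = 0.098) or western diet liver replicate 3 (adjusted p = 0.062), and the tumor call without control liver replicate 2 (adjusted p = 0.063). Between tumor and peritumoral liver Cers2 was at 0.08 ± 0.07 (adjusted p = 0.41).

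As a TPM ratio within a library, Cers6 to Cers2 was 0.0463 ± 0.0153 (SD, n = 3) in control liver, 0.0251 ± 0.00355 in western diet liver and 0.0284 ± 0.00692 in DEN liver (n = 4 each). In peritumoral liver it was 0.0523 ± 0.0146 (n = 8) and in tumors 0.0810 ± 0.0216 (n = 6), where replicate 5 was lowest at 0.0444. The Cers2 transcript thus remained more than 10 times as abundant as the Cers6 transcript in every library, on the length-corrected scale.

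Degs1 encodes the desaturase that turns dihydroceramide into ceramide. The gene (ENSMUSG00000038633) lies at chr1:182275772-182282804 on the minus strand. Its normalized counts were 1620.1, 1443 and 1426 in control liver, 1626 to 1750.0 in western diet liver and 1717 to 1816 in DEN liver. They were 1739 to 2274 (median 1931) in peritumoral liver and 2006 to 2504 (median 2071) in tumor, so that all tumors lay above all control liver and DEN liver libraries. The differences were small. Tumor exceeded control liver by 0.52 ± 0.08 on the log2 scale (adjusted p = 1.5e-05). DEN alone (0.24 ± 0.09, adjusted p = 0.048) and peritumoral liver against western diet liver (0.21 ± 0.07, adjusted p = 0.045) passed narrowly, and both hung on single libraries. The first was lost without control liver replicate 2 or 3 or any 1 of the 4 DEN liver libraries (0.21 to 0.26), as well as without the 4 libraries with pancreatic markers (0.23, adjusted p = 0.11), and the second without any 1 of the 4 western diet liver libraries or peritumoral replicates 3, 4, 7 and 8 (0.18 to 0.23). In tumor against peritumoral liver Degs1 was at 0.13 ± 0.06 (adjusted p = 0.087), and at 0.17 (adjusted p = 0.025) without peritumoral replicate 7.

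**Figure D3:**
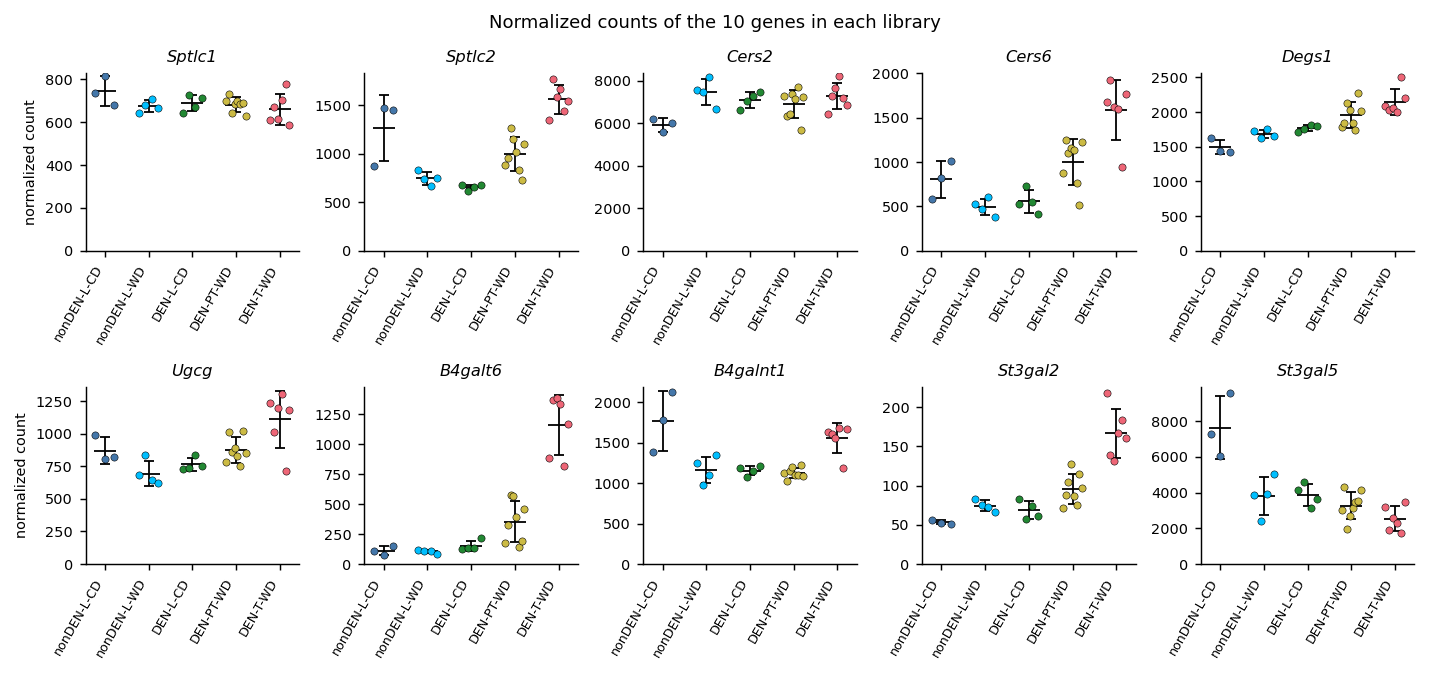
Normalized counts of the 10 genes, 1 panel a gene, with a point for each library and the group mean ± SD, on linear axes that start at 0. All tumor points lie above all peritumoral points for Sptlc2, B4galt6 and St3gal2, and all control liver points lie above the other 4 groups for St3gal5. How many of all tested genes separate in this way was not counted.

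Ugcg encodes glucosylceramide synthase, which commits ceramide to the glycolipid branch. The gene (ENSMUSG00000028381) lies at chr4:59189257-59222833 on the plus strand. It was at 988, 806 and 820.2 normalized counts in control liver, 681, 834, 645 and 620.0 in western diet liver, and 729.7, 739.8, 839 and 751 in DEN liver. peritumoral liver ranged from 749 to 1023 (median 857) and tumor from 715 to 1308 (median 1194), with replicate 5 the lowest tumor. Tumor exceeded peritumoral liver by 0.34 ± 0.11 (adjusted p = 0.014), and by 0.44 without replicate 5, and it exceeded control liver by 0.35 ± 0.14 (adjusted p = 0.041). The first was at 0.34 (adjusted p = 0.051) without the 4 libraries with pancreatic markers, and the second was lost without control liver replicate 2 or 3 or tumor replicate 1, 3, 4 or 6 (0.29 to 0.33), and without the 4 libraries with pancreatic markers (0.33, adjusted p = 0.077). Peritumoral liver against western diet liver was at 0.33 ± 0.12 (adjusted p = 0.074), and it passed without western diet liver replicate 2 (0.43) or peritumoral replicate 6 (0.36). The Ugcg values for western diet alone (-0.33 ± 0.15, adjusted p = 0.12) and DEN alone (-0.19 ± 0.15, adjusted p = 0.40) did not pass.

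B4galt6 encodes one of the galactosyltransferases that make lactosylceramide, and it moved over the widest range of the 10 genes. The gene (ENSMUSG00000056124) lies at chr18:20684599-20746404 on the minus strand. Normalized counts were 111, 73.6 and 148 in control liver, 121, 109.7, 107 and 85.2 in western diet liver, and 126, 133, 135 and 217 in DEN liver. Peritumoral libraries were spread from 145 to 573 (median 361), and tumors ran from 818 to 1391 (median 1253). Every peritumoral library was above every western diet liver library, and every tumor was above every other library of the series.

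The log2 fold change of B4galt6 was 1.71 ± 0.26 in tumor against peritumoral liver (adjusted p = 2.6e-05) and 1.80 without replicate 5. Against control liver the tumor value was 3.39 ± 0.42 (adjusted p = 7.2e-07), a 10.5-fold difference. Peritumoral liver exceeded western diet liver by 1.74 ± 0.34 (adjusted p = 0.0031) and DEN liver by 1.22 ± 0.33 (adjusted p = 0.02). The last call was lost without DEN liver replicate 1, 2 or 3 (adjusted p of 0.058 to 0.072) and without the 4 libraries with pancreatic markers (1.29, adjusted p = 0.064). For western diet alone (-0.07 ± 0.41, adjusted p = 0.93) and DEN alone (0.46 ± 0.41, adjusted p = 0.45) B4galt6 was within the spread of the libraries, and the sign of the first turned with scaling to library totals (0.06).

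B4galt5 encodes the other lactosylceramide synthase and was looked at after its values were seen. It averaged 10.7 to 13.9 TPM in the 4 groups other than tumor, far above B4galt6. The TPM ratio of B4galt6 to B4galt5 had a median of 0.0542 (0.0473 to 0.109) in control liver, 0.0716 in western diet liver, 0.108 in DEN liver and 0.208 (0.107 to 0.524) in peritumoral liver. In tumors the median was 1.13, and the ratio was over 1 in 4 of 6 tumors and in no other library. The lowest tumor ratio, 0.167, belonged to replicate 5, where B4galt5 reached 2573 normalized counts against 647 to 775 in the other 5 tumors. Peritumoral libraries held 664 to 1075 normalized counts of B4galt5, and tumor replicate 5 was the only tumor above that range.

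Among the 15625 genes tested, the 5 whose log2 CPM (counts scaled to library size) followed B4galt6 most closely over the 25 libraries were Zfp37 (Pearson's r = 0.982), Arhgap22 (0.979), Nid1 (0.977), Golm1 (0.974) and Scn8a (0.973). The libraries fall into groups that differ in B4galt6, so these values describe the group pattern.

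St3gal5 encodes the sialyltransferase that makes GM3, the first ganglioside of the series. The gene (ENSMUSG00000056091) lies at chr6:72097592-72154571 on the plus strand. Its normalized counts were 7288, 6054 and 9550.4 in control liver, 3849.8, 2434, 3899 and 5062 in western diet liver, and 4147, 4586, 3157 and 3665 in DEN liver. peritumoral liver ran from 1935 to 4298 (median 3302) and tumor from 1761 to 3473 (median 2439). Every control liver library exceeded every library of the other 4 groups.

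St3gal5 fell by 1.00 ± 0.26 on the log2 scale with western diet alone (adjusted p = 0.0073) and by 0.97 ± 0.26 with DEN alone (adjusted p = 0.0094). Both calls were lost when control liver replicate 3, the highest library, was left out (-0.81, adjusted p = 0.056 and -0.78, adjusted p = 0.067). The DEN alone call was also lost with the replicate number as a block. Tumor against control liver gave -1.59 ± 0.23 (adjusted p = 6e-06). Between peritumoral liver and its controls St3gal5 was at -0.22 ± 0.21 (western diet liver, adjusted p = 0.51) and -0.25 ± 0.21 (DEN liver, adjusted p = 0.46), and between tumor and peritumoral liver at -0.37 ± 0.18 (adjusted p = 0.12), which became -0.45 (adjusted p = 0.045) without peritumoral replicate 3.

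B4galnt1 encodes the enzyme that extends GM3 to GM2 and so opens the path to complex gangliosides. The gene (ENSMUSG00000006731) lies at chr10:127165225-127172330 on the plus strand. It was at 1387, 1785 and 2128 normalized counts in control liver, 1249, 982, 1097 and 1346 in western diet liver, and 1186, 1081, 1148 and 1209 in DEN liver. peritumoral liver stayed between 1028 and 1225 (median 1113), and tumor ranged from 1193 to 1683 (median 1622), with replicate 5 at 1193 and the other 5 tumors at 1565 or more. B4galnt1 fell by 0.60 ± 0.12 with western diet alone (adjusted p = 0.0014) and by 0.61 ± 0.12 with DEN alone (adjusted p = 0.0012), and no library of either group reached the lowest control liver library. The DEN alone call was lost with the replicate number as a block. In tumor against peritumoral liver B4galnt1 rose by 0.47 ± 0.09 (adjusted p = 0.00021), and by 0.53 without replicate 5. Tumor against control liver was at -0.18 ± 0.11 (adjusted p = 0.18), or -0.36 (adjusted p = 0.011) without control liver replicate 1, the lowest of its group.

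St3gal2 encodes a sialyltransferase that adds the terminal sialic acid of complex gangliosides, and it was the least abundant of the 10 genes in every group. The gene (ENSMUSG00000031749) lies at chr8:110919922-110972480 on the plus strand. Its normalized counts were 56.1, 52.9 and 51.5 in control liver, 82.9, 75.7, 73.2 and 66.0 in western diet liver, and 82.7, 57.8, 74.0 and 61.0 in DEN liver. They were 71.5 to 128 (median 92.8) in peritumoral liver and 131 to 218 (median 164) in tumor, so that every tumor was above every other library. Tumor exceeded peritumoral liver by 0.80 ± 0.13 (adjusted p = 5.4e-05) and control liver by 1.64 ± 0.19 (adjusted p = 3e-07). All libraries of western diet liver and DEN liver were above all of control liver, but the differences did not pass (0.48 ± 0.20, adjusted p = 0.081 and 0.37 ± 0.20, adjusted p = 0.19). Peritumoral liver against DEN liver fell just short as well (0.48 ± 0.16, adjusted p = 0.051), and it passed without peritumoral replicate 1 or 6 (0.53 and 0.52).

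The TPM ratio of B4galnt1 to St3gal5, 2 enzymes that act in turn, was 0.181 ± 0.0406 (SD, n = 3) in control liver, 0.248 ± 0.0475 (n = 4) in western diet liver and 0.240 ± 0.0429 (n = 4) in DEN liver. It was 0.287 ± 0.0963 (n = 8) in peritumoral liver and 0.531 ± 0.124 (n = 6) in tumor. Tumor libraries spanned 0.398 to 0.729, and 1 peritumoral library, at 0.491, lay within that range.

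**Figure D4:**
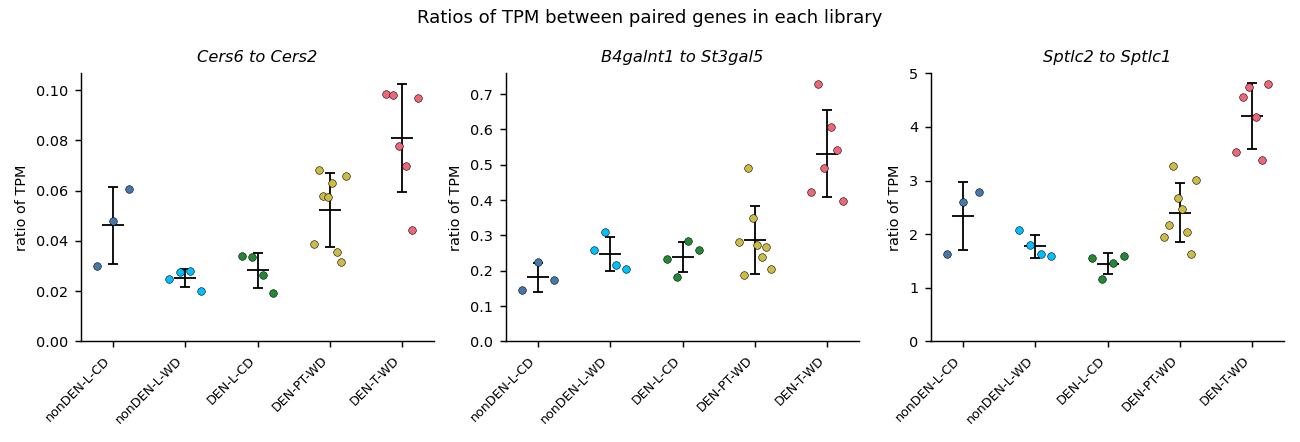
Within-library TPM ratios of Cers6 to Cers2, B4galnt1 to St3gal5 and Sptlc2 to Sptlc1, with a point for each library and the group mean ± SD, on linear axes from 0. Tumor means are 0.0810, 0.531 and 4.20, each the highest of its panel, and the tumor range is apart from every other group only for Sptlc2 to Sptlc1.

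Whether the western diet difference itself depended on DEN was tested as the difference between peritumoral liver minus DEN liver and western diet liver minus control liver. Of the 10 genes 3 passed, all positive (Sptlc2, Cers6, B4galnt1), where 4.65% of all tested genes were positive and 3.74% negative. Sptlc2 was lower with western diet in the absence of DEN (-0.76) and higher with it in DEN tissue (0.60), a difference of 1.36 ± 0.21 (adjusted p = 0.00054). Cers6 gave 1.56 ± 0.34 (adjusted p = 0.0075), from -0.70 without DEN, which did not pass on its own, to 0.85 with DEN. B4galnt1 gave 0.56 ± 0.16 (adjusted p = 0.029), from -0.60 to -0.03, and its call was lost without control liver replicate 2 or 3, western diet liver replicate 2 or 3 or DEN liver replicate 2 (0.41 to 0.55), and without the 4 libraries with pancreatic markers (0.58, adjusted p = 0.066). For B4galt6 the difference was 1.28 ± 0.52 (adjusted p = 0.13). The median over the 10 was 0.54 against 0.03 over all tested genes. Peritumoral tissue and the presence of tumors cannot be told apart from western diet with DEN in this test.

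Some markers of other cell types passed in each comparison. Of all tested genes, 19.5% were higher and 18.1% lower in tumor against peritumoral liver, and 27.8% and 26.2% in tumor against control liver. Peritumoral liver had 7.5% and 4.87% against western diet liver and 6.8% and 3.76% against DEN liver. The shares were 11.2% and 12% for western diet alone, 9.12% and 12.2% for DEN alone, and 4.65% and 3.74% in the interaction. With few markers a list, several counts are near these shares. In tumor against peritumoral liver 2 of 5 cholangiocyte markers rose, and the summed level of the 5 was 385 to 833 TPM in tumors, 72.7 to 324 TPM in peritumoral liver and 32.4 to 68.6 TPM elsewhere. The markers that rose were Spp1 (1.97) and Sox9 (1.38), while Krt19 (-0.96), Krt7 (-0.70) and Epcam (0.26) did not pass. Of 8 macrophage and Kupffer cell markers 4 fell, with sums of 145 to 354 TPM in tumors and 181 to 381 TPM around them, and of 8 hepatocyte markers 2 rose and 2 fell. Of 7 stellate and fibroblast markers 2 rose and 3 fell, with sums of 201 to 267 TPM in tumors, and of 6 endothelial markers 1 rose and 1 fell. In peritumoral liver against western diet liver 3 of 6 endothelial and 3 of 7 stellate and fibroblast markers rose, with sums of 134 to 170 TPM and 239 to 435 TPM in peritumoral liver against 82.7 to 129 TPM and 151 to 226 TPM in western diet liver. In the same comparison 1 cholangiocyte, 1 T cell and 1 macrophage and Kupffer cell marker rose. Among control liver libraries neutrophil markers summed to 6.86, 26.0 and 33.0 TPM, and all 4 of the 5 that were tested were lower in western diet liver (5.05 to 7.38 TPM). Western diet alone also had 2 of 8 hepatocyte, 1 endothelial and 1 cholangiocyte marker lower, and 1 B and plasma cell and 1 stellate and fibroblast marker higher. In tumor against control liver 5 of 8 hepatocyte markers were lower and 1 higher, and 3 of 8 macrophage and Kupffer cell markers were lower and 1 higher. Higher there were 5 of 6 endothelial markers (1 lower), 4 of 7 stellate and fibroblast markers (1 lower), 4 of 5 B and plasma cell, 2 of 7 T cell and 2 of 5 cholangiocyte markers, and 1 of 4 tested neutrophil markers was lower. Against DEN liver, peritumoral liver had 4 of 6 endothelial, 2 of 7 stellate and fibroblast, 2 of 8 macrophage and Kupffer cell and 1 of 5 cholangiocyte markers higher. With DEN alone 3 of 5 B and plasma cell and 2 of 7 T cell markers were higher and 2 of 4 tested neutrophil, 1 endothelial and 1 cholangiocyte marker lower. In the interaction of DEN with diet 2 of 6 endothelial, 1 neutrophil, 1 stellate and fibroblast and 1 cholangiocyte marker were positive and 1 T cell marker was negative. No list had every marker at 0. The part of these cells in the results above was not tested.

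The rest of the pathway was read from 5 lists with 65 further genes, of which 59 were tested (Cers1, Cers3, St8sia1, St8sia5, St6galnac5 and Acer1 were too low). In tumor against peritumoral liver 10 of the 59 rose and 14 fell, with a median log2 fold change of -0.06, where 19.5% of all tested genes were higher and 18.1% lower. The balance of the 2 directions depended on scaling and samples, with 11 higher and 8 lower with library totals and 10 higher and 8 lower without the 4 libraries with pancreatic markers. Of the 10 other ceramide synthesis genes 1 rose, Sptssa (0.29), a small activating subunit of serine palmitoyltransferase. In the same list 5 fell, namely the third catalytic subunit Sptlc3 (-2.32), the ceramide synthase Cers4 (-0.49), the ketoreductase Kdsr (-0.46) and the serine palmitoyltransferase inhibitors Ormdl3 (-0.25) and Ormdl1 (-0.22). Sptlc3 was scarce, with 0 to 29 counts a library. The median of that list was -0.36, opposite in sign to the 0.40 of the 10 synthesis genes.

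In the glycolipid list 2 of 12 rose in tumor against peritumoral liver, the transfer protein Gltp (0.76 ± 0.18, adjusted p = 0.0023, or 0.42 and 0.0025 without tumor replicate 5) and the sialyltransferase St3gal1 (0.35). Of 5 sphingomyelin genes only the ceramide transporter Cert1, listed as Col4a3bp, passed (-0.36). Breakdown genes were divided, with 5 of 20 higher and 4 lower. The neutral sphingomyelinase Smpd3 led at 0.97 ± 0.22 (adjusted p = 0.0015), and the nonlysosomal glucosylceramidase Gba2 was lowest at -0.51 ± 0.09 (adjusted p = 0.00012). Of 12 genes around sphingosine 1-phosphate 2 rose, the receptor S1pr3 (1.40 ± 0.30, adjusted p = 0.00079) and the ceramide kinase Cerk (0.53 ± 0.11, adjusted p = 0.00049), and 4 fell, with the receptor S1pr5 (-1.10 ± 0.26, adjusted p = 0.0024) and the phosphatase Sgpp1 (-0.48 ± 0.05, adjusted p = 3.9e-07) lowest. S1pr3 stood at 73.7 normalized counts in tumor replicate 5.

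**Figure D5:**
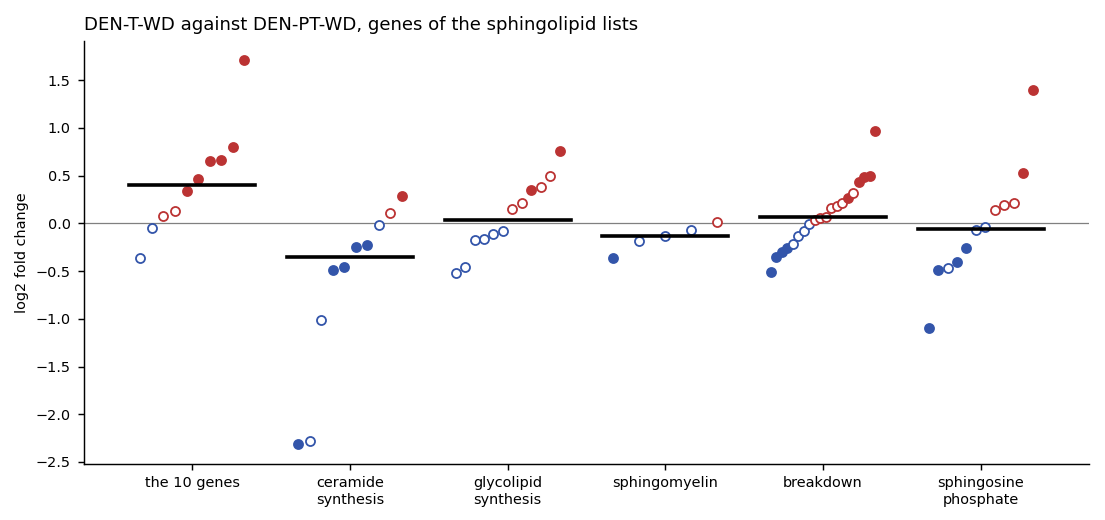
Log2 fold change of tumor against peritumoral liver for the 10 synthesis genes and for the tested genes of the 5 other sphingolipid lists, with a point a gene and a black line at each list's median. Filled points passed, open points did not, and the medians run from -0.36 (other ceramide synthesis genes) to 0.40 (the 10 genes).

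With western diet alone 15 of the 59 other genes rose and 8 fell, where 11.2% of all tested genes were higher and 12% lower. Among 20 tested lysosomal and other breakdown genes 9 were higher and 4 lower. The higher ones included Glb1 (0.72 ± 0.15, adjusted p = 0.0016), the ganglioside galactosidase. Gal3st1, which makes sulfatide, had the largest increase among the genes that averaged at least 1 TPM (2.43 ± 0.33, adjusted p = 2.5e-05). St3gal1, a sialyltransferase of complex gangliosides, fell by 1.29 ± 0.14 (adjusted p = 2.8e-06), from 3195 to 3936 normalized counts in control liver to 1285 to 1592 in western diet liver. It fell by 1.24 ± 0.14 with DEN alone as well (adjusted p = 4.3e-06), to 1374 to 1698. Ormdl2 was lower with western diet alone (-0.65), and Asah2, a ceramidase, was higher (0.75). The sialidase Neu3 (-1.20, adjusted p = 0.039) and S1pr5 (-0.95, adjusted p = 0.0498) passed narrowly, and their calls were lost in 7 and 8 of 13 alternative fits.

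With DEN alone 10 of the 59 rose and 7 fell, where 9.12% of all tested genes were higher and 12.2% lower. Among genes that averaged at least 1 TPM in the higher group, Gal3st1 (1.48), the sphingomyelin synthase Sgms2 (0.64), Gba2 (0.62) and the acid ceramidase Asah1 (0.54) were highest. St3gal1, the receptor S1pr2 (-0.76), Ormdl2 (-0.54) and the sphingosine kinase Sphk2 (-0.51) were lowest. In the ceramide synthesis list 1 scarcer gene also rose by at least 1 on the log2 scale. In peritumoral liver against western diet liver 4 rose and 5 fell (all tested genes, 7.5% and 4.87%). The 4 were the sialyltransferase St6galnac4 (0.90), Cerk (0.74), Asah1 (0.66) and Hexa (0.37). Among genes that averaged at least 1 TPM in the higher group, Gba2 (-0.38) fell most, and 1 scarcer glycolipid gene fell by at least 1 on the log2 scale. Neu1 (-0.27), Plekha8 (-0.28) and Cptp (-0.27) passed narrowly as lower, and these calls were lost in 14, 13 and 11 of 19 alternative fits, where the values came as near to 0 as -0.10, -0.11 and -0.09. In peritumoral liver against DEN liver 9 rose and 4 fell (all tested genes, 6.8% and 3.76%), with Smpd3 (1.50), St6galnac4 (1.09) and Gal3st1 (1.08) highest. The 4 lower ones, Gm2a (-0.34), Gba2 (-0.30), Ormdl2 (-0.26) and Ormdl1 (-0.23), lost their calls in 5, 14, 11 and 10 of 19 alternative fits, with values as near to 0 as -0.12, -0.09, -0.04 and -0.01.

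Tumor against control liver gave 19 higher and 12 lower of the 59, where 27.8% of all tested genes were higher and 26.2% lower, so these counts are near those of all genes. Smpd3 (2.47), S1pr3 (2.47), St6galnac4 (2.27) and Gal3st1 (2.10) rose most, and 9 of 20 breakdown genes were higher against 2 lower. S1pr5 (-2.40), Neu3 (-0.91, lost in 10 of 16 alternative fits), Sphk2 (-0.88) and Ormdl2 (-0.81) fell most. The median over the 59 was 0.06.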

How the data were processed

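RNA of livers and liver tumors was sequenced in 25 libraries. The authors checked reads with FastQC, aligned them to GRCm38 with STAR and ran RSEM, and they deposited for each gene an expected count, which is not normalized and need not be whole, and a TPM value, which corrects for transcript length and scales each library to the same sum. Which aligner and RSEM versions, which annotation and which strand setting were used is not given in the sources used here. The deposited FPKM values were not used.

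After rounding to whole numbers, genes with low counts were removed by group (filterByExpr, minimum count 10), libraries were normalized by TMM, and edgeR's quasi-likelihood test (version 4.0.16, under R 4.3.3) was applied in 1 fit over the 5 groups, and p-values were adjusted by Benjamini-Hochberg over 15625 genes. The study's methods name DESeq2, and DESeq2 1.42.0 was run as an alternative, with its size factors, no filter on low counts, a minimum log2 fold change of 1, the replicate number as a block, fits of only the groups compared and each library left out. The procedure was tested on simulated data. Totals of 21530083 to 38074411 counts bound the precision, and St3gal2 and B4galt6 had the fewest counts of the 10 genes in control liver. Sampling noise alone would give pairs of replicates a chi-square per gene near 1, and the lowest among all pairs was 26.9, so no 2 were treated as repeat sequencing of 1 library. Separate pieces or preparations from 1 mouse would not be seen this way. TPM levels and ratios are given without a test.

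Grouping followed the labels. The text names all 10 genes, and for the other sphingolipid genes up to 4 higher and 4 lower in each comparison, with an adjusted p of at most 0.05 and a mean of at least 1 TPM in the higher group. One gene that this rule would name is not reported here. The 10 genes and all lists were chosen with earlier results of these data known. Promoters and motif counts were computed in Python 3.11.15 (pandas 2.3.3), and Matplotlib 3.10.9 drew the figures.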

Additional observations from a re-analysis of the deposited data

Results flagged for a closer look

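In 40 tests, 1 for each of the 10 genes in each group of 4 or more libraries, 3 values lay apart from the rest of their group by Dixon's criterion, and chance alone marks about 1 group in 20. Tumor replicate 5 was the lowest tumor for Cers6, at 943 normalized counts (a gap of 0.664 of the group's range), and for B4galnt1, at 1193 (a gap of 0.759). It is also the tumor with the lowest sum of hepatocyte markers, and the part of that difference in the gene values was not tested. DEN liver replicate 4 was the highest of its group for B4galt6, at 217 (a gap of 0.906).

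The western diet difference differed between mice with and without DEN for 3 of the 10 genes, by the interaction term of the edgeR fit, in which peritumoral tissue cannot be told apart from western diet with DEN. The values were 1.36 for Sptlc2 (adjusted p = 0.00054), 1.56 for Cers6 (adjusted p = 0.0075) and 0.56 for B4galnt1 (adjusted p = 0.029), whose call was lost without any 1 of 5 libraries and without the 4 libraries with pancreatic markers. Among the 59 other sphingolipid genes 6 passed as positive and 5 as negative, where 4.65% of all tested genes were positive and 3.74% negative. The largest positive ones were St3gal1 (1.45, adjusted p = 7.3e-05), S1pr2 (0.97, adjusted p = 0.028), Cerk (0.95, adjusted p = 0.0059) and the ceramidase Acer2 (0.71, adjusted p = 0.029). Among the negative ones were Gal3st1 (-1.35, adjusted p = 0.036), Gba2 (-1.01, adjusted p = 0.00068), the galactosylceramidase Galc (-0.68, adjusted p = 0.045) and Sgms2 (-0.64, adjusted p = 0.0078). The other 3, named to complete the count, were the sphingomyelinase Smpd1 (0.31, adjusted p = 0.0058), Sphk2 (0.46, adjusted p = 0.048) and the scarce Sptlc3 (-4.43, adjusted p = 0.049). Calls were lost in 18 of 26 alternative fits for Galc, 10 for Gal3st1, 8 for Acer2 and 7 for S1pr2.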

How the results depend on the processing

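Of 1280 values of the 10 genes under the alternatives, 1141 kept direction and side of the threshold, 74 lost the threshold, 30 gained it and 35 turned in sign. None of those 35 passed (smallest adjusted p 0.11, largest absolute log2 fold change 0.20), and the cause was not tested. For the other named sphingolipid genes, 56 calls gave 1024 alternative values, of which 169 no longer passed, and 10 calls were lost in most of their alternatives. Scaling to library totals and leaving out the 4 libraries with pancreatic markers were chosen after seeing the data. Library totals moved the median of all genes by 0.109, 0.065, 0.171, 0.216, 0.051 and 0.332 for western diet alone, DEN alone, peritumoral against western diet liver, peritumoral against DEN liver, tumor against peritumoral liver and tumor against control liver, and by 0.107 in the interaction.

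With a minimum log2 fold change of 1 the counts of the 10 genes, in the same order, were 1, 0, 2, 1, 1 and 3, and 3 of the other sphingolipid genes passed in tumor against peritumoral liver. No filter gave 2 in peritumoral against western diet liver. In peritumoral liver against DEN liver library totals gave 6 and leaving out the pancreatic libraries 1. Without the pancreatic libraries the other counts were 3 for DEN alone, 3 for peritumoral against western diet liver, 5 and 6 for tumor against peritumoral and control liver, and 2 for the interaction. Leaving out 1 library at a time gave 3 to 5, 2 to 4, 2 to 5, 1 to 4, 6 to 7, 5 to 8 and, in the interaction, 2 to 4 genes, and 21 to 26 of the other genes in tumor against peritumoral liver. The lowest of these were 2 for DEN alone without control liver replicate 3, 2 for peritumoral against western diet liver without western diet liver replicate 1, 3 or 4 or peritumoral replicate 3, 4 or 8, and 1 for peritumoral against DEN liver without DEN liver replicate 1 or 3. DESeq2 gave 5, 5, 4, 3, 6, 7 and 4. Shares of all tested genes under these settings, other than the minimum fold change, are not given here. The counts therefore show only how far the calls held.

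Replicate numbers are shared by the groups, but samples with the same number did not deviate together in every pair (mean correlations of -0.181 to 0.149), although all 3 pairs of DEN liver and control liver correlated best with their own number. Numbers were therefore not used to pair samples, and whether equal numbers mark 1 mouse stays unknown from the sources used here. With the replicate number as a block the counts were 3, 0, 1, 3, 5, 6 and, in the interaction, 2, and 17 of the other genes.

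Signs turned as follows. Western diet alone: B4galt6 went to 0.070 with the block, 0.058 with library totals and -0.29 to 0.20 with 1 library left out. Peritumoral against western diet liver: Sptlc1 went to -0.0062 without the pancreatic libraries and -0.0045 to 0.041 with 1 left out, Cers2 to 0.050 and B4galnt1 to 0.13 with library totals, and B4galnt1 to -0.12 to 0.026 with 1 left out. Peritumoral against DEN liver: Sptlc1 went to 0.00060 with the block, 0.20 with library totals and -0.046 to 0.013 with 1 left out, and library totals took Cers2 to 0.17 and B4galnt1 to 0.18. Tumor against peritumoral liver: Sptlc1 went to 0.0089 with library totals and 0.0084 without the pancreatic libraries. Tumor against control liver: library totals took Sptlc1 to 0.16 and B4galnt1 to 0.14. Interaction: Degs1 went to 0.078 with library totals, 0.018 without the pancreatic libraries and -0.088 to 0.0058 with 1 left out, and St3gal2 to 0.045 with the block, 0.10 with library totals, 0.11 without the pancreatic libraries and -0.075 to 0.10 with 1 left out.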

Other observations

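The summed level of the 10 genes, which adds transcripts of enzymes with different roles, was 415.8 to 491.7 TPM (median 428.7) in control liver, 348.9 to 425.4 TPM (median 411.1) in western diet liver and 339.8 to 387.8 TPM (median 372.1) in DEN liver. It was 411.5 to 501.0 TPM (median 460.2) in peritumoral liver and 532.6 to 582.3 TPM (median 550.4) in tumors. The TPM of the median gene moved as well, by 0.495 on the log2 scale for tumor against control liver and 0.142 for tumor against peritumoral liver. Every tumor lay above every other library, and the sums of DEN liver lay below every control library. The sums are not corrected for the shift of the median gene. A higher sum in tumor thus does not by itself mean a rise beyond that shift. These sums were not tested, and Cers2 and St3gal5 make up most of them in every group.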
